A study of Drosophila melanogaster with 8 samples.

Results

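Anti-HA beads were incubated with testis lysates that held the tagged RNA-binding protein HOW(S)-HA and with a lysate that held no tagged protein, and the RNA left on the beads was sequenced in 4 pull-downs. The comparison described here sets the 3 HOW(S)-HA pull-downs directly against the single nanos-GAL4 pull-down, with no division by input. It covers the transcripts with 20 or more estimated reads in at least 3 of the 4 pull-downs, which were 18671 of the 30069 Drosophila melanogaster transcripts quantified. The HOW(S)-HA testes came from males in which nanos-GAL4 drove UAS-HOW-S-HA, and the control testes from males of the nanos-GAL4 line, homozygous for the driver and without the UAS transgene. The lines therefore differed in driver dose as well as in the tagged protein, and the effects of the 2 cannot be told apart. All males were young adults, and each sample pooled the testes of a large number of them. nanos-GAL4 is active in germline stem cells and early spermatogonia, whereas the lysates held RNA of whole testes. An input, RNA of the lysate before the beads, was sequenced for each of the 4 pull-downs.

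Held out wings (HOW) is a STAR-family protein, the Drosophila counterpart of the vertebrate Quaking proteins, and its short isoform HOW(S) is cytoplasmic. STAR proteins bind RNA through a KH domain with flanking QUA regions and recognise short motifs built around CUAAC in untranslated regions (UTRs), where they can alter the stability or translation of an mRNA. Among germ cells of the testis, HOW is largely limited to germline stem cells, their gonialblast daughters and the earliest spermatogonial cysts. An RNA on anti-HA beads may have been held by the tagged protein, by another protein attached to it, or by the beads themselves, and a pull-down without the tag measures what the beads retain alone.

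The pull-downs held 20.5 M, 24.0 M and 21.7 M estimated reads with HOW(S)-HA and 23.2 M without it. The HOW(S)-HA inputs held between 9.13 M (replicate 1, the shallowest library) and 20.8 M, and the nanos-GAL4 input 19.9 M. Of the transcripts compared, 16409 reached 20 reads in all 4 pull-downs and 1635 fell below it in 1 HOW(S)-HA pull-down. The remaining 627 were below 20 reads in the nanos-GAL4 pull-down and passed through the HOW(S)-HA libraries alone, so they had to be lower without the tag. The rule has no counterpart in the other direction, since the 417 transcripts with 20 reads only in the nanos-GAL4 pull-down were left out. Of the marker genes listed for germ cells, cyst cells, spermatids, accessory gland and muscle, 0 could be paired with a transcript identifier here, so the tissue was not checked against its markers. Transcripts were given a name where the study pairs the identifier with one (31 transcripts) or where the RefSeq gene table lists the identifier under a gene (23 transcripts). Of these 54 named transcripts, 40 met the rule.

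The nanos-GAL4 pull-down ranked transcripts about as the HOW(S)-HA pull-downs did among themselves. Over the 18671 transcripts, the Spearman rank correlation of estimated reads lay between 0.908 and 0.925 for the 3 pairs of a HOW(S)-HA and the nanos-GAL4 pull-down, and between 0.894 and 0.933 for the 3 pairs of HOW(S)-HA pull-downs. HOW(S)-HA pull-downs 1 and 3 were the pair least alike. The number of chi-square units per degree of freedom, a measure of how far 2 libraries differ beyond counting noise, was between 59.9 and 83.8 for HOW(S)-HA against nanos-GAL4 pull-downs and between 41.6 and 66.5 among HOW(S)-HA pull-downs. By this measure the ranges overlapped, but each HOW(S)-HA pull-down was farther from the nanos-GAL4 pull-down than from either other HOW(S)-HA pull-down. The values were 83.8 against 57.0 and 66.5 for pull-down 1, 59.9 against 57.0 and 41.6 for pull-down 2, and 74.5 against 66.5 and 41.6 for pull-down 3. No 2 pull-downs agreed within sampling noise, so each was counted as its own library. HOW(S)-HA pull-down 3 had correlations of 0.875, 0.925 and 0.926 with the HOW(S)-HA inputs, above those of pull-down 1 with the same inputs (0.799, 0.855 and 0.856).

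**Figure D1:**
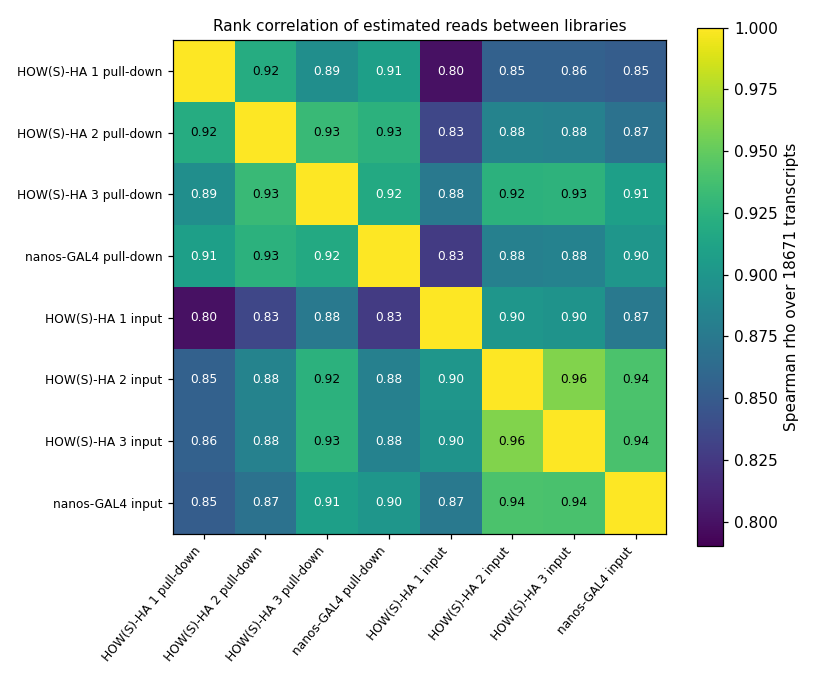
Spearman rank correlation of estimated reads over 18671 transcripts for each pair of the 8 libraries, with HOW(S)-HA before nanos-GAL4 within pull-downs and within inputs. The nanos-GAL4 pull-down has correlations of 0.908 to 0.925 with the 3 HOW(S)-HA pull-downs, within the 0.894 to 0.933 seen among these.

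Relative to the bulk of the RNA in each library, most transcripts stood at similar levels with and without HOW(S)-HA. Levels are given as normalised CPM (CPM, the counts per 1 M reads, after TMM scaling, which sets the bulk of transcripts equal between libraries) or, where genes are compared, as TPM, which also divides by length. TMM scaling holds the median difference near 0, and neither scale shows how much RNA a pull-down recovered. In TPM as deposited, the median log2 of mean HOW(S)-HA over nanos-GAL4 was -0.30, with 0.1 added to each. The log2 difference, in counts after TMM scaling, is HOW(S)-HA over nanos-GAL4. It lay between -0.5 and 0.5 for 12586 transcripts (67.4%) and between -1 and 1 for 16473 (88.2%), with a median of 0.08 over all transcripts. It was 1 or more, a 2-fold higher level with HOW(S)-HA, for 1728 transcripts (9.25%), and -1 or less for 470 (2.52%). Of the 1728, 585 had under 20 reads in the nanos-GAL4 pull-down and passed the rule only through the libraries in which they were high, so the 2 counts cannot be set against each other. With 20 reads in all 4 pull-downs, 1023 transcripts were 2-fold higher and 225 2-fold lower. edgeR's quasi-likelihood test called no transcript at a p of at most 0.05 after Benjamini-Hochberg adjustment (0 of 18671, 0%), and the smallest adjusted p was 0.112. At an unadjusted p under 0.05, the same test had 1171 transcripts higher and 559 lower, with 743 and 203 when HOW(S)-HA pull-down 2 was left out and 1000 and 347 without pull-down 3. limma-voom also called 0 transcripts, whereas the Wald test of DESeq2 called 550 higher and 40 lower, of which 298 were at 0 reads in the nanos-GAL4 pull-down. The spread came from the HOW(S)-HA pull-downs alone, since a lone control library has none, and the median 95% interval reached 1.08 log2 units to either side of the difference. Without HOW(S)-HA pull-down 1, 791 transcripts were 2-fold lower in place of 470.

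**Figure D2:**
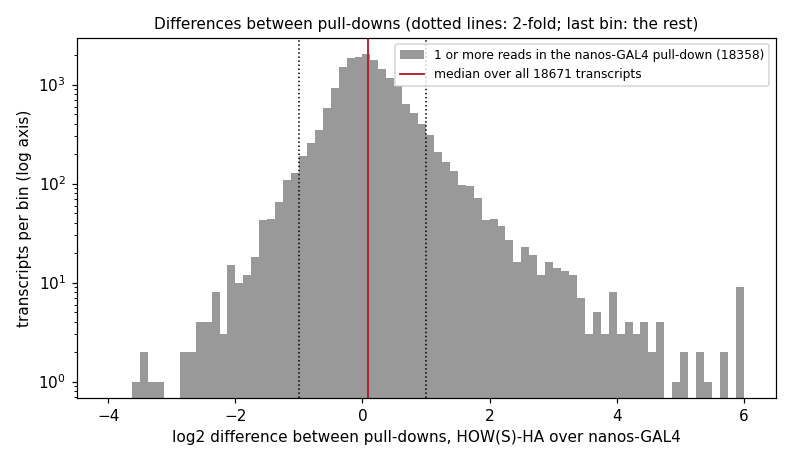
Number of transcripts (log axis) by log2 difference between pull-downs, HOW(S)-HA over nanos-GAL4, for the 18358 transcripts with reads in the nanos-GAL4 pull-down; dotted lines mark a 2-fold difference and the red line the median of 0.08 over all 18671. At 1 or more are 1728 transcripts, including 313 at 0 reads in the nanos-GAL4 pull-down that are not drawn, and at -1 or less 470; the filter let 585 of the 1728 pass through the HOW(S)-HA pull-downs alone.

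The transcripts 2-fold higher or lower were examined library by library. The nanos-GAL4 pull-down lay below all 3 HOW(S)-HA pull-downs for 5640 of all transcripts (30.2%), above all 3 for 4404 (23.6%) and inside their range for 8627 (46.2%), in normalised CPM. Among the 1728 transcripts 2-fold higher, it lay below all 3 for 1496, and every HOW(S)-HA pull-down was at least 2-fold above it for 903. Among the 470 transcripts 2-fold lower, it lay above all 3 HOW(S)-HA pull-downs for 453, and every one of these was 2-fold or more below it for 126. Such a count follows in part from the choice of the transcripts by their mean difference, and is given as a description. Of all transcripts compared, 875 were at 0 reads in at least 1 of the HOW(S)-HA pull-downs and 313 in the nanos-GAL4 pull-down.

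The scale on which the lone control is read decided which side it fell on. In TPM as deposited, the nanos-GAL4 pull-down lay above all 3 HOW(S)-HA pull-downs for 8805 transcripts and below all 3 for 1825. After the TPM were rescaled by TMM factors, it lay above for 5162 and below for 4933. A difference in the share of very short transcripts went with this. Transcripts of 300 nucleotides or less took 49.4%, 46.4% and 57.5% of all TPM in the HOW(S)-HA pull-downs and 36.2% in the nanos-GAL4 pull-down, but only 1.26%, 1.13% and 1.82% of reads against 0.665%. In the inputs the same class took 68.2%, 60.6% and 62.3% of TPM with HOW(S)-HA and 57.1% without it, so the nanos-GAL4 lysate was also the lowest of its set. TPM sum to the same total in every library, and a larger share in 1 class lowers the values of the others. At the nearest library, the nanos-GAL4 TPM was 2-fold or more lower for 578 transcripts and 2-fold or more higher for 363.

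By length, the 45 shortest transcripts, of 300 nucleotides or less, stood apart. Their median log2 difference was 0.89, with 18 of 45 at least 2-fold higher with HOW(S)-HA (40%, against 9.25% over all transcripts) and 0 at least 2-fold lower. The same 45 had a median log2 difference of 0.49 between the inputs. The next class, up to 1000 nucleotides (3127 transcripts), had a median of 0.13, with 8.25% of transcripts 2-fold higher and 1.60% 2-fold lower. Those up to 3000 nucleotides (9541 transcripts) and up to 10000 (5632 transcripts) both had a median of 0.07, with 8.59% and 10.7% 2-fold higher. The 326 transcripts over 10000 nucleotides had a median of 0.04, with 9.82% 2-fold higher and 3.68% 2-fold lower. 

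The lysates were compared in the same way, to show which RNAs also differed between the lysates before the beads. The input comparison shares no library with that of the pull-downs. Again 0 transcripts were called (smallest adjusted p 0.127, edgeR's quasi-likelihood test), with 960 higher and 345 lower at an unadjusted p under 0.05. These numbers were 1789 and 1134 without HOW(S)-HA input 1, 555 and 210 without input 2, and 553 and 209 without input 3. Between the inputs 1948 transcripts (10.4%) were 2-fold higher with HOW(S)-HA and 1122 (6.01%) 2-fold lower. Of the 1728 transcripts 2-fold higher in the HOW(S)-HA pull-downs, 638 (36.9%) were also 2-fold higher in the HOW(S)-HA inputs, 917 (53.1%) differed there by less than 2-fold, and 173 were 2-fold lower there. Of the 470 transcripts 2-fold lower, 155 (33.0%) were also 2-fold lower in the inputs, and 234 (49.8%) differed there by less than 2-fold. Across transcripts, the log2 differences of pull-downs and inputs had a Spearman correlation of 0.34 and a Pearson correlation of 0.19 (18671 transcripts, which are not independent replicates and share the annotation's division of reads among isoforms).

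Among the transcripts with 20 reads in all 4 pull-downs, every HOW(S)-HA pull-down was at least 2-fold above the nanos-GAL4 pull-down for 384, and the inputs differed by less than 2-fold for 196 of them. Every HOW(S)-HA pull-down was 2-fold or more below the control for 82, and the inputs differed by less than 2-fold for 31 of these. edgeR's quasi-likelihood test called none of these 196 and 31. Of its calls, which were not limited to these transcripts, DESeq2's Wald test had 254 higher and 20 lower with inputs less than 2-fold apart.

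**Figure D3:**
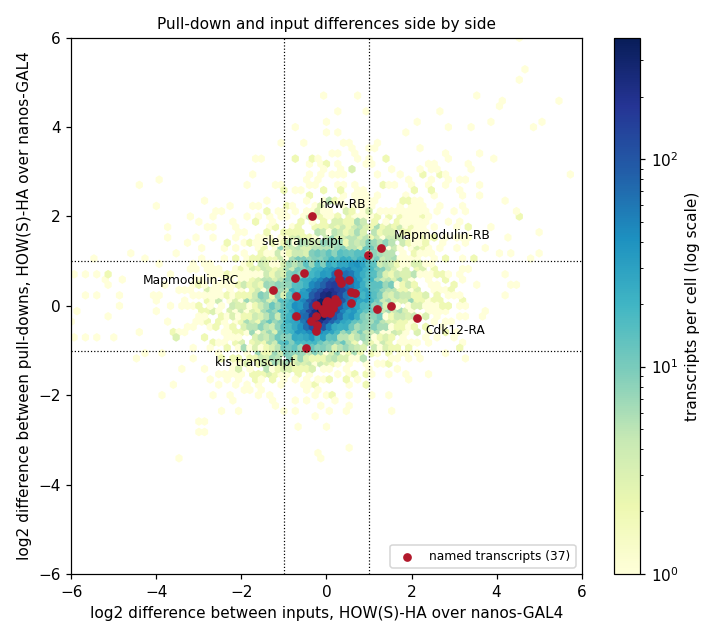
Log2 difference between pull-downs (vertical) against log2 difference between inputs (horizontal), both HOW(S)-HA over nanos-GAL4, for the transcripts with reads in both nanos-GAL4 libraries; colour gives the number of transcripts per cell, red points are 37 named transcripts, dotted lines mark 2-fold, and transcripts beyond 6 on either axis are not drawn. how-RB lies above the line on the vertical axis (2.01) and slightly left of 0 on the horizontal one (-0.34), while Mapmodulin-RB is at 1.29 on both.

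A total of 4 transcripts with no gene name in the tables used here show the patterns the counts hold. FBtr0445178, of 2188 nucleotides, had the smallest unadjusted p of the transcripts higher with HOW(S)-HA. It had 30.6, 35.8 and 26.0 TPM in the HOW(S)-HA pull-downs and was listed at 0 in the nanos-GAL4 pull-down, at least 754-fold less in normalised CPM when the control is set to 3 reads (adjusted p 0.112, edgeR). The same transcript had 26.3, 18.7 and 16.8 TPM in the HOW(S)-HA inputs and was at 0 in the nanos-GAL4 input. The lysates thus differed in it before the beads, but 1 control lysate cannot show that this belongs to the line. FBtr0343139, of 3377 nucleotides, had the smallest unadjusted p of the transcripts lower with HOW(S)-HA, with 3.10, 3.76 and 3.44 TPM against 50.1 TPM in the nanos-GAL4 pull-down. Its inputs differed in the same direction, with 0.307, 0.799 and 2.78 TPM with HOW(S)-HA against 18.3 TPM.

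The other 2 were chosen after their values were seen, as those of smallest unadjusted p with 20 reads in all 4 pull-downs and an input log2 difference within 0.5. FBtr0110786, of 2507 nucleotides, had 22.4, 21.6 and 18.1 TPM in the HOW(S)-HA pull-downs and 4.39 TPM in the nanos-GAL4 pull-down, a log2 difference of 2.65 with a 95% interval of 2.05 to 3.25. Its inputs had 4.33, 3.33 and 2.80 TPM with HOW(S)-HA and 3.60 TPM without it, which overlap. FBtr0306258, of 4812 nucleotides, had 0.166, 0.141 and 0.113 TPM in the HOW(S)-HA pull-downs and 1.62 TPM in the nanos-GAL4 pull-down, a log2 difference of -3.13 with a 95% interval of -4.15 to -2.11. Its inputs had 0.166, 0.0922 and 0.0925 TPM with HOW(S)-HA against 0.113 TPM. For both transcripts the closeness of the inputs and the distance of the pull-downs were fixed by the choice. FBtr0306258 was also near the limit of 20 reads, with 25.1, 24.5 and 24.3 reads in the HOW(S)-HA pull-downs and 211 in the nanos-GAL4 pull-down. The adjusted p was 0.112 for FBtr0110786 and 0.155 for FBtr0306258 in edgeR's quasi-likelihood test.

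A control pull-down at 0 was examined for the 313 transcripts concerned. All of them passed the rule through 20 or more reads in each HOW(S)-HA pull-down, so a large difference was fixed by their choice. In the nanos-GAL4 input, 177 of the 313 had 20 or more reads and 108 were also at 0. Salmon divides reads among isoforms that share exons, and a 0 for 1 isoform can stand beside reads given to another of the same gene. Without these 313 transcripts, 1416 were 2-fold higher and 470 2-fold lower.

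how, the gene of the tagged protein, lies at 3R:22042191-22079321 (Release 6 assembly) and has 6 annotated transcripts, of which how-RB encodes HOW(S). how-RB (FBtr0084178, 1759 nucleotides) had 15.4, 7.17 and 2.19 TPM in the HOW(S)-HA pull-downs and 2.51 TPM in the nanos-GAL4 pull-down. Pull-downs 1 and 2 were above the control and pull-down 3 was slightly below it in TPM. In normalised CPM all 3 were above it, with 36.1, 16.9 and 7.36 against 4.98. The log2 difference was 2.01, and its 95% interval in the fit, -1.01 to 5.04, covers 0. In the inputs how-RB had 0.457, 0.844 and 0.538 TPM with HOW(S)-HA and 1.02 TPM without it. The lysates with the transgene thus showed no higher level of the isoform it is named for. Whether the transgene's RNA maps to how-RB was not tested.

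The other how isoforms had differences of either sign. how-RF (FBtr0335195) had 16.6, 23.4 and 14.1 normalised CPM in the HOW(S)-HA pull-downs and 3.57 in the nanos-GAL4 pull-down, with no overlap. Its log2 difference was 2.34 (95% interval 1.06 to 3.63, unadjusted p 0.0073, adjusted p 0.298 in edgeR), and DESeq2's Wald test called it at an adjusted p of 0.0010. how-RF was at 0.428, 0.205 and 0.526 TPM in the HOW(S)-HA inputs and listed at 0 in the nanos-GAL4 input. how-RC had 5.26, 5.66 and 3.47 TPM with HOW(S)-HA and 3.80 TPM without it, a log2 difference of 0.72 (unadjusted p 0.048, adjusted p 0.535). how-RD had lower values with HOW(S)-HA, 0.357, 0 and 0.804 TPM against 1.84 TPM and a log2 difference of -1.62 whose interval of -7.88 to 4.63 spans both directions. how-RE (log2 difference 0.31) overlapped between the lines, and how-RA had reads in only 1 pull-down, HOW(S)-HA 2.

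Reads of isoforms of 1 gene cannot be told apart with certainty, and the sum over the 6 is less open to that division. It came to 26.0, 17.9 and 9.22 TPM in the HOW(S)-HA pull-downs and 10.2 TPM in the nanos-GAL4 pull-down (17.7 ± 8.40 with HOW(S)-HA, SD, n = 3). In normalised CPM the sum was 79.7, 62.5 and 49.7 against 32.0, and the control was the lowest of the 4. An exact permutation test of 3 libraries against 1 cannot give a one-sided p below 0.25, which is its value here. In the inputs the summed level was 27.0, 24.2 and 23.1 normalised CPM with HOW(S)-HA and 20.6 without it, but 2.73, 3.56 and 3.19 TPM with HOW(S)-HA against 3.65 TPM, so the direction turned with the scale. how-RB made up 59.3%, 40.1% and 23.7% of the how TPM in the HOW(S)-HA pull-downs and 24.6% in the nanos-GAL4 pull-down, so its share in pull-down 3 was close to that in the control.

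**Figure D4:**
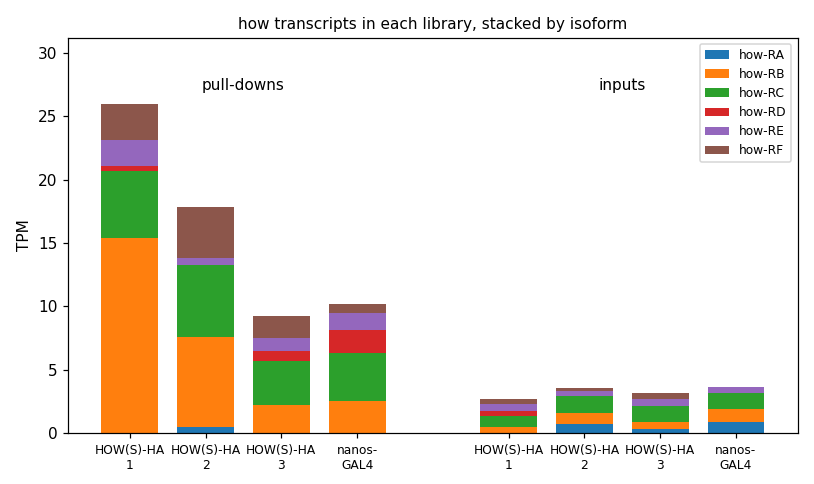
TPM of the 6 how transcripts in each of the 8 libraries, stacked by isoform, with HOW(S)-HA replicates 1 to 3 left of nanos-GAL4 in pull-downs and in inputs. HOW(S)-HA pull-downs 1 and 2 reach 26.0 and 17.9 TPM, with how-RB the largest part of both, and pull-down 3 (9.22) is close to the nanos-GAL4 pull-down (10.2).

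The study's named transcripts also include isoforms of genes whose proteins it followed after loss of HOW(S), many of which carry the CUAAC core in their annotated UTRs. The study's enriched 3′ UTR motif has A, G or U before that core, so the c of pelo-RA lies outside it. The 3′ UTR motifs listed below are sequence matches, and binding of HOW(S) to these sites was not tested here. The shared core is in capitals.
B52-RF and B52-RK (B52, 3R): gCTAAC
Bacc-RC and Cdk12-RA: tCTAAC
Ldh-RA: aCTAAC
pelo-RA: cCTAAC
Of the 14 named transcripts with such a motif listed in the 3′ UTR, 9 met the rule, with a median log2 difference of 0.06 between pull-downs against 0.08 over all transcripts. The nanos-GAL4 pull-down lay below all 3 HOW(S)-HA pull-downs for 3 of the 9 (30.2% over all transcripts), inside their range for 6 and above for 0. The other 7 measured transcripts of the genes followed at the protein level, with no such motif listed in the 3′ UTR, had a median of 0.07, with the control below for 1 and inside for 6. All 7 are listed with the study's enriched 5′ UTR motif, as are some of the 9. The 2 sets therefore do not compare transcripts with and without a motif of the study. B52, Cdk12 and Mapmodulin have isoforms in both of these small sets, which share reads.

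Among these 16 isoforms, 2 were 2-fold higher with HOW(S)-HA (9.25% over all transcripts) and 0 lower. B52-RK (FBtr0300588; B52 is an SR-type splicing factor) had 12.5, 10.3 and 12.4 normalised CPM in the HOW(S)-HA pull-downs and was listed at 0 in the nanos-GAL4 pull-down, at least 84.9-fold lower there at 3 reads (adjusted p 0.112 in edgeR, 9.6e-05 in DESeq2's Wald test). B52-RK passed the rule through the HOW(S)-HA pull-downs alone, so its higher level with HOW(S)-HA was fixed by the choice of transcripts. The sister isoform B52-RF had 7.02, 4.34 and 0 TPM with HOW(S)-HA and 4.46 TPM without it, so a 0 also occurred in a HOW(S)-HA pull-down. B52-RN had 3.23, 2.58 and 0.386 TPM with HOW(S)-HA and 1.63 TPM without it, which overlap. B52-RK was at 0, 0.794 and 0.610 TPM in the HOW(S)-HA inputs and at 0.518 TPM in the nanos-GAL4 input.

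Mapmodulin belongs to the ANP32 family of acidic nuclear proteins. Its isoform Mapmodulin-RB had 1.34, 1.82 and 2.05 TPM in the HOW(S)-HA pull-downs and 0.977 TPM in the nanos-GAL4 pull-down, a log2 difference of 1.29 (95% interval -0.50 to 3.07, adjusted p 0.661 in edgeR). The inputs differed by the same amount, 1.29. The more abundant Mapmodulin-RA had 12.3, 8.41 and 10.2 TPM with HOW(S)-HA and 14.2 TPM without it. In normalised CPM it had 34.8, 23.9 and 41.5 against 33.9, with the control inside the range and a log2 difference of -0.02. Mapmodulin-RC had 3.13, 2.54 and 1.61 TPM against 2.46 TPM, a log2 difference of 0.36.

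pelo-RA, of a ribosome rescue factor needed in germline stem cells, had 62.9, 64.2 and 62.1 normalised CPM with HOW(S)-HA and 60.3 without it, a log2 difference of 0.06 with an interval of -0.33 to 0.45, among the tightest of those named. eIF3c-RB, of a subunit of translation initiation factor eIF3, had a log2 difference of -0.07. eIF5-RC, of the factor that activates the GTPase of eIF2, had 1.49, 4.84 and 0.893 TPM against 1.81 TPM, a log2 difference of 0.74 with pull-down 2 alone well above the control. D1-RA and D1-RC, of an AT-hook protein of satellite DNA, differed by 0.01 and 0.07.

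The 3 isoforms of Cdk12, a kinase of RNA polymerase II, had log2 differences of -0.28 (RA), -0.24 (RB) and -0.35 (RC), and in normalised CPM the control lay inside the HOW(S)-HA range for each. Cdk12-RA had 1.12, 1.97 and 1.19 TPM with HOW(S)-HA and 2.30 TPM without it. In the inputs Cdk12-RA stood at 0.702, 1.06 and 0.873 TPM with HOW(S)-HA and 0.263 TPM without it, a log2 difference of 2.12. The input differences of Cdk12-RB (-0.71) and Cdk12-RC (-0.37) went the other way, and the isoforms share reads. Ldh-RA, of lactate dehydrogenase, had a log2 difference of 0.50 and Bacc-RC one of 0.57, both with the control between the lowest and highest HOW(S)-HA library in normalised CPM.

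Hipk-RA and jvl-RF were named by the study as well. They are outside the motif list used above, although CUAAC-type sites are known in the Hipk-RA transcript. Hipk is a homeodomain-interacting protein kinase that acts in several signalling pathways, and lies at 3L:543060-581099. Hipk-RA (FBtr0072552, 11261 nucleotides) had 3.43, 5.08 and 4.36 TPM in the HOW(S)-HA pull-downs and 3.83 TPM in the nanos-GAL4 pull-down. In normalised CPM the control was the lowest, with 58.5, 87.3 and 107 against 55.4. The log2 difference was 0.61 with a 95% interval of -0.51 to 1.72 (unadjusted p 0.203, adjusted p 0.770, edgeR). The input log2 difference was 0.28. jvl-RF, of the microtubule-associated protein Javelin-like, had 4.80, 4.27 and 2.44 TPM with HOW(S)-HA and 4.69 TPM without it. In normalised CPM it had 46.4, 41.6 and 33.9 against 38.4, a log2 difference of 0.08 with an interval of -0.60 to 0.76.

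The 17 transcripts named through the RefSeq table were not chosen for any link to HOW. Their median log2 difference was -0.04. Of them, 1 was 2-fold higher and 0 were 2-fold lower, and the control was above all 3 HOW(S)-HA pull-downs for 7, inside for 7 and below for 3. The transcript of sle (slender lobes, a nucleolar protein) was the 1 that was higher, with 2.89, 3.10 and 1.74 TPM in the HOW(S)-HA pull-downs and 1.51 TPM in the nanos-GAL4 pull-down (log2 difference 1.15, 95% interval 0.38 to 1.91, unadjusted p 0.014, adjusted p 0.393, edgeR). The inputs also differed, with 0.938, 1.36 and 1.96 TPM with HOW(S)-HA against 0.930 TPM and a log2 difference of 0.99.

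Several of these transcripts had more reads in the control. mio and Wdr59 encode subunits of GATOR2, a complex upstream of the growth kinase TORC1. The Wdr59 transcript had 36.1, 43.9 and 26.8 TPM in the HOW(S)-HA pull-downs and 62.9 TPM in the nanos-GAL4 pull-down, a log2 difference of -0.43 (unadjusted p 0.061, adjusted p 0.564, edgeR). The mio transcript had 12.6, 10.8 and 8.41 TPM against 16.4 TPM, a log2 difference of -0.23. Both were above all 3 HOW(S)-HA pull-downs in the control, on either scale, and the inputs differed by -0.22 and -0.25.

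The transcript of Wdr24, another GATOR2 gene, was outside the rule, with 0 TPM in each HOW(S)-HA pull-down and 1.80 TPM in the nanos-GAL4 pull-down. Its inputs went the other way, with 0, 0.537 and 0 TPM with HOW(S)-HA and 0 TPM without it, so it had reads in single libraries only. LanA, a laminin chain of basement membranes, had 4.59, 6.41 and 2.54 TPM with HOW(S)-HA against 8.56 TPM (log2 difference -0.57, adjusted p 0.754). The kis transcript, of a CHD-type chromatin remodeller, had 0.003 estimated reads in both the pull-down and the input of HOW(S)-HA replicate 1. It had 2.95 and 2.23 TPM in pull-downs 2 and 3 against 4.64 TPM, and its interval of -7.78 to 5.91 spans both directions.

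The Uba1 transcript, of the ubiquitin-activating enzyme, had 359, 305 and 352 normalised CPM in the HOW(S)-HA pull-downs and 356 in the nanos-GAL4 pull-down (log2 difference -0.07, interval -0.50 to 0.35). The alpha-Spec transcript, of a spectrin found in the fusome that joins germ cells, had 165, 195 and 215 normalised CPM with HOW(S)-HA and 197 without it, a log2 difference of -0.04.

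Over all 40 named transcripts, 5 were 2-fold higher with HOW(S)-HA (9.25% over all transcripts) and 1 was 2-fold lower (2.52%). The 5 were B52-RK, how-RF, how-RB, Mapmodulin-RB and the sle transcript, and the 1 was how-RD. B52-RK, at 0 in the control, passed the rule through the HOW(S)-HA pull-downs alone. In edgeR's quasi-likelihood test 4 had an unadjusted p under 0.05 and 0 were called after adjustment over all transcripts, and DESeq2's Wald test called 2, how-RF and B52-RK. Named transcripts outside the rule included Bacc-RD, D1-RD, HmgD-RD, how-RA and 3 isoforms of Ldh. Just inside the rule, how-RD had 43.0 and 138 reads in HOW(S)-HA pull-downs 1 and 3, none in pull-down 2, and 190 in the nanos-GAL4 pull-down. Just outside it, D1-RD had 42.4 and 40.8 reads in HOW(S)-HA pull-downs 2 and 3 and none in the other pull-downs.

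**Figure D5:**
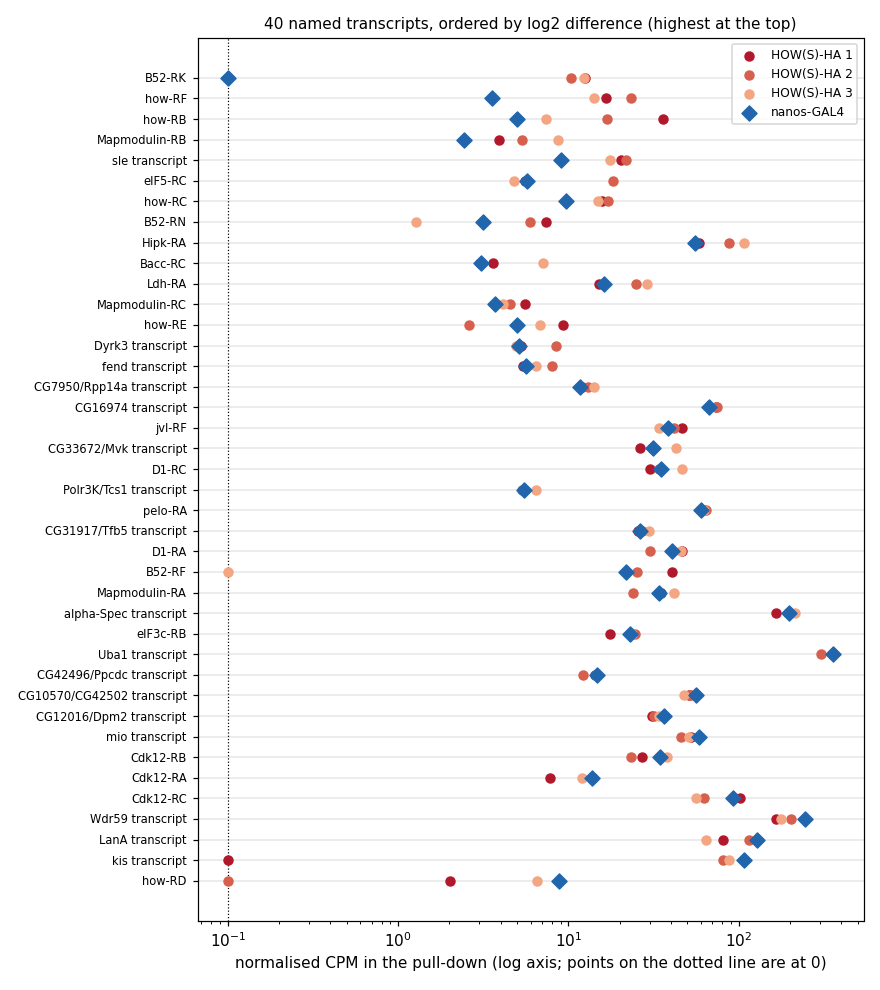
Normalised CPM (log axis) of the 40 named transcripts in the 3 HOW(S)-HA pull-downs (circles) and the nanos-GAL4 pull-down (diamonds), ordered by log2 difference with the highest at the top; points on the dotted line are at 0. The diamond lies left of all circles for 11 transcripts, among the circles for 21 and right of all of them for 8.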

How the data were processed

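For each library the authors deposited TPM and an estimated count of reads per transcript. Per the methods they depleted rRNA, made reverse-stranded libraries, sequenced them single-end on 1 lane, trimmed adaptors (Cutadapt 1.1), removed rRNA and tRNA reads (Subread 2.0.0) and quantified the rest with Salmon 0.14.2 against Release 6 transcripts. The deposited estimated counts are not normalised and were rounded here. The deposited TPM sum to 1 total per library and depend on transcript length.

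Here the 3 HOW(S)-HA pull-downs were compared with the 1 nanos-GAL4 pull-down with edgeR 4.0.16 (R 4.3.3), using TMM factors (1.06, 1.02 and 0.98 with HOW(S)-HA, 0.94 without) and the legacy quasi-likelihood F-test, with p-values adjusted over 18671 transcripts. The call was an adjusted p of at most 0.05 and a log2 difference of 1 or more in size. The inputs were fitted separately. DESeq2 1.42.0 and limma 3.58.1 served as alternatives. The lone nanos-GAL4 library was assumed to vary like the HOW(S)-HA ones (common dispersion 0.217). Each p-value sets a difference against the spread among the HOW(S)-HA libraries of its fit, and holds nothing on the spread of the control. A level of 0 was set to 3 reads for a lower bound, and intervals are at 95%.

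The fit was also run on simulated counts with known changes, in which every transcript was given the same spread. Its outcome is not given here, and no result above rests on it. Transcripts were named through the study or RefSeq, and 0 columns of other series were present. Named were every transcript with such a name and at most 2 identifiers in each direction. The transcripts and lists were chosen with earlier results of these data known.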

Additional observations from a re-analysis of the deposited data

Results flagged for a closer look

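Among the named transcripts, 2 moved one way in all 3 pull-downs and the other way in all 3 inputs relative to nanos-GAL4, in normalised CPM. how-RB had a log2 difference of 2.01 between pull-downs and -0.34 between inputs, and Mapmodulin-RC had 0.36 and -1.26. The difference between the pull-down and the input comparison was not tested. For how-RB and for Mapmodulin-RC alike, 3 of 3 HOW(S)-HA pull-downs were above the control in normalised CPM, but 2 of 3 in TPM. Mapmodulin-RC was at 0 in HOW(S)-HA input 1, the shallowest library.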

How the results depend on the processing

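No transcript was called in either direction under limma-voom or under the edgeR settings that took the spread from the pull-downs. The choice of test and the source of the spread both mattered, and the pooled spread given next was also an edgeR setting. DESeq2's Wald test called 550 transcripts higher and 40 lower, of which 298 were at 0 in the nanos-GAL4 pull-down, and a spread pooled over all 8 libraries (added after seeing the data) called 65 and 2, of which 45 were at 0 there. The cause was not tested. All 67 pooled calls were also called by DESeq2. Counts of 2-fold differences followed the filter. With 20 reads in any 1 pull-down, 3844 were higher and 1295 lower, with 20 in all 4, 1029 and 224, and with no filter beyond 1 read, 5715 and 2078. limma-voom had 1273 lower. Leaving out each HOW(S)-HA pull-down in turn gave 654 to 791 lower. Scaled by library totals alone, the median over all transcripts was 0.20 in place of 0.08. Rescaled by TMM factors, the nanos-GAL4 TPM lay above all 3 HOW(S)-HA pull-downs for 5162 transcripts, below all 3 for 4933, and 2-fold above the nearest for 140. In TPM as deposited with 1.5-fold as the limit, it lay that far above the nearest for 1724 and below it for 819. Counts at an unadjusted p under 0.05 moved more, as given above for each library left out. Input counts of 2-fold differences stayed within 1.5 times under their alternatives. Of 555 values of named transcripts under other settings, 538 stayed within 1 SD of the HOW(S)-HA pull-downs. That SD was each transcript's own on the log2 scale, and was wide where a HOW(S)-HA pull-down was at or near 0. It was 4.81 for B52-RF, which went from 0.0044 to -2.80 under limma-voom, and 5.61 for kis, from -0.935 to -4.18. No transcript past 2-fold in the main fit turned sign, but smaller differences did, such as eIF5-RC from 0.74 to -0.15 without pull-down 2. The sum of isoforms per gene was not run, since no table used here pairs all transcripts with genes. No paired analysis was possible because the nanos-GAL4 pull-down carries no replicate number and the groups compared share none. The single control library limits every comparison, since its own spread is unknown.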
